A study of Mus musculus with 2 samples.

Results

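Soat1, Soat2, Lcat, Lipa, Npc1 and Npc2 are the 6 genes of cholesterol (Chol) esterification and of the release of Chol from lysosomes described here, out of 27962 gene names on the array. They were found by their names on the array, where Lipa is written Lip1, and they are read by 11 of its 41174 probes. Liver RNA came from male apoE-KO mice of the C57BL/6 strain, which lack apolipoprotein E on both diets and become hypercholesterolemic without any added Chol. The diets differed for 1 week before the liver was taken, from 10 weeks of age: one group ate normal chow, and for the other 1.25% Chol was mixed into that chow (high-Chol diet). Each diet has 3 arrays from independent experiments, and no source says how many animals each experiment held. There is no wild-type group, so the values describe the added Chol in animals that all carry the same deletion.

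Free Chol is toxic to membranes in excess, and cells store it as esters. The esters are made inside the endoplasmic reticulum by the acyl-CoA:Chol acyltransferases, SOAT1 and SOAT2, of which SOAT1 is found in most cell types, macrophages among them, and SOAT2 in hepatocytes and enterocytes. LCAT, which the liver secretes, esterifies Chol on plasma lipoproteins. In the opposite direction, lysosomal acid lipase, encoded by Lipa, hydrolyzes the esters that arrive with lipoproteins, and the soluble protein NPC2 hands the free Chol to the membrane protein NPC1, which passes it out of the lysosome.

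The arrays carry 60-base probes, and each spot gives a background-subtracted intensity. Values are given as log2 of that signal relative to the 75th percentile of the array, so that 0 is the signal at that percentile and 1 unit is a 2-fold step. Levels of different probes cannot be compared with each other. The diets were compared with limma over 16725 genes and adjusted for multiple testing by Benjamini-Hochberg, and a gene was called at an adjusted p under 0.05. The 3 chow arrays and high-Chol array 1 lie on slide 1, and high-Chol arrays 2 and 3 lie on slide 2, so without high-Chol array 1 the slide and the diet cannot be told apart. The 75th percentile signal was 271 to 373 on slide 1 and 762 to 799 on slide 2. From 50.5% to 67.2% of spots per array were well above background, and all 11 hepatocyte markers on the array were well above background on all 6 arrays. The Apoe probe, whose place relative to the deleted part of the gene is not known here, read 1.66 to 3.81 with chow against 3.18 to 3.56 with high-Chol feeding.

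The probe sequences that carry the Soat1 result are shown first, because the array names 4 probes Soat1 and they do not lie in the same place. By the array's annotation for mouse build mm7, 3 of them lie on the minus strand of chromosome 1 with starts at most 3645 bases apart, at chr1:156394882-156394941 (A_52_P651833), chr1:156392448-156392507 (A_51_P391754) and chr1:156391237-156391296 (A_52_P642167). The fourth, A_51_P111612, is placed on the minus strand at chr7:64592747-64592806, and its nearest probe for another gene, Arrdc4, is 7869 bases away on the same strand. The whole of the first probe and the first 30 bases of the other 3 read 5′ to 3′ as follows, in lower case throughout.
A_52_P651833: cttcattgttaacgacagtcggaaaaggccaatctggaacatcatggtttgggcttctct
A_51_P391754: tactaataatcccaaaatggctcctaaggc
A_52_P642167: taagactgcaaactacttagcattcaaaga
A_51_P111612: ccaaggggaaaataaagattgtattttgta
The longest run of bases that A_51_P111612 shares with any of the 3 chromosome 1 probes, on either strand, is 9 bases. Which exon or untranslated region each probe falls in was not analysed here.

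Soat1 was the 1 gene of the 6 that passed the test, and the call was made on its brightest probe. A gene was read by the probe brightest over all 6 arrays, for Soat1 A_51_P391754, which took that place through its high-Chol values. With chow the chromosome 7 probe was the brighter on every array (mean -0.66 against -0.88), and read by the probe brightest with chow, an alternative chosen after seeing the data, Soat1 gave 0.42 and was not called (limma, adjusted p = 0.286). A_51_P391754 read -0.65, -0.71 and -1.27 on normal chow against 0.18, 0.36 and 0.39 with high-Chol feeding. Every high-Chol array was above every chow array, as in 11.9% of all genes. The mean was -0.88 ± 0.34 (SD, n = 3) with normal chow and rose by 1.19 on the log2 scale, to 0.31 ± 0.11 (SD, n = 3). The 95% interval of the rise was 0.71 to 1.68, and the fold change was 2.28 (limma, adjusted p = 0.0332). Over all genes tested, 2.69% were called higher and 0.227% were called lower, and Soat1 ranked 819 of 16725 genes by the size of its positive difference. Soat1 is among the genes that the study listed as changed on these same arrays, so its direction is not independent evidence. With the slide as a block, where only high-Chol array 1 carries the difference, the value was 1.06 and was not called (adjusted p = 0.319). Leaving out any array other than high-Chol array 1 also ended the call, with differences of 0.99 to 1.31.

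**Figure D1:**
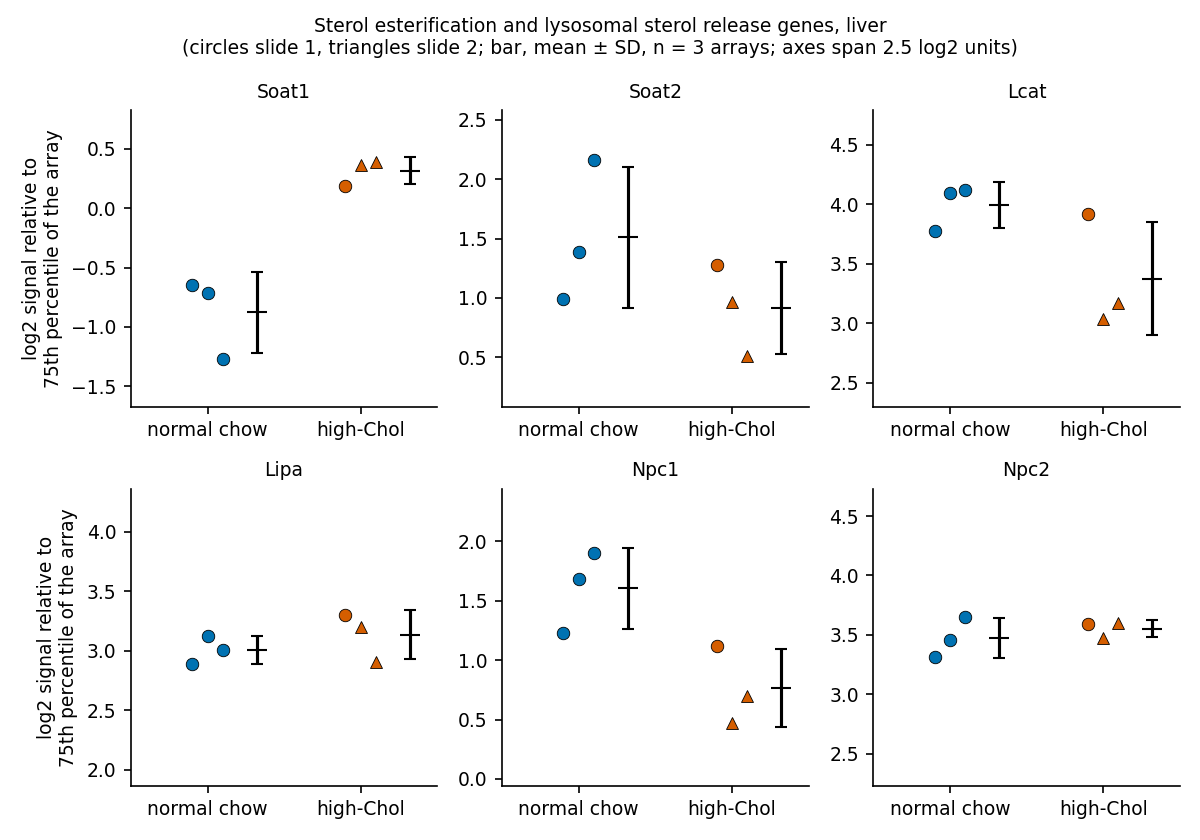
Log2 signal relative to the 75th percentile of the array for the brightest probe of each gene, by diet; points are arrays (circles slide 1, triangles slide 2), bars are the mean ± SD of 3 arrays, and every vertical axis spans 2.5 units with its own origin. The Soat1 and Npc1 points do not overlap between the diets, and those of Lcat separate by slide with high-Chol feeding, where array 1 read 3.92 and the others 3.04 and 3.17.

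Fitted probe by probe, A_51_P391754 was called (limma over 23910 probes, adjusted p = 0.0347), where 2.36% of all probes were called higher. The other chromosome 1 probes of Soat1 also had an adjusted p under 0.05. They passed the filter only through the high-Chol arrays, so their values are a description and do not add to the Soat1 rise. A_52_P651833 read -4.26, -4.25 and -4.32 with chow against -3.22, -3.03 and -2.99 with high-Chol feeding. It was well above background on 2 of 3 chow arrays and all 3 high-Chol arrays. Every high-Chol array was above every chow array, as in 11.3% of all probes, an outcome that passing the filter through the high-Chol arrays favours. A_52_P642167 read -5.59, -5.23 and -5.71 on chow, where no array was well above background, and -4.48, -4.05 and -4.07 with high-Chol feeding, where all 3 were. By the means, its level with high-Chol feeding was at least 1.28-fold higher with this background subtraction. The bound was set by the dimmest probe that each chow array still measured well above background. High-Chol array 1, at -4.48, lay below that limit on chow array 1, at -3.60, so the bound does not hold array by array. Under the normexp background these dim probes turned direction, to -0.36 for A_52_P651833 and -0.64 for A_52_P642167, while A_51_P391754 stayed above 0 at 0.59. With the slide as a block A_51_P391754 gave 1.06 and no probe of the 6 genes was called, against 0.00418% of all probes.

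The chromosome 7 probe was not called. A_51_P111612 read -0.42, -0.51 and -1.04 with chow against -0.05, -0.30 and -0.36 with high-Chol feeding, and all 6 of its spots were well above background. The diets did not overlap, but the ranges nearly touched and the log2 difference was 0.42 (95% interval -0.07 to 0.91; limma, adjusted p = 0.301). It was 0.23 without chow array 3, 0.11 under the normexp background, 0.18 with median scaling, 0.18 in the authors' values and 0.61 with the slide as a block. Probes whose diets did not overlap, with the high-Chol diet higher, made up 11.3% of all probes. Within each array, the difference between A_51_P391754 and the chromosome 7 probe, both measured on all 6 arrays, was -0.24 to -0.20 with chow and 0.23 to 0.75 with high-Chol feeding. The diets did not overlap and differed by 0.77 (exact two-sided permutation test over arrays, p = 0.1, the smallest that 3 against 3 arrays allow, and 0.2 after adjustment over the 6 pairs of Soat1 probes). That value was 0.48 under the normexp background and 0.45 with the slide as a block, the latter an alternative chosen after seeing the data. The pairs with the dim probes enter values near background, and no difference is drawn from them.

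**Figure D2:**
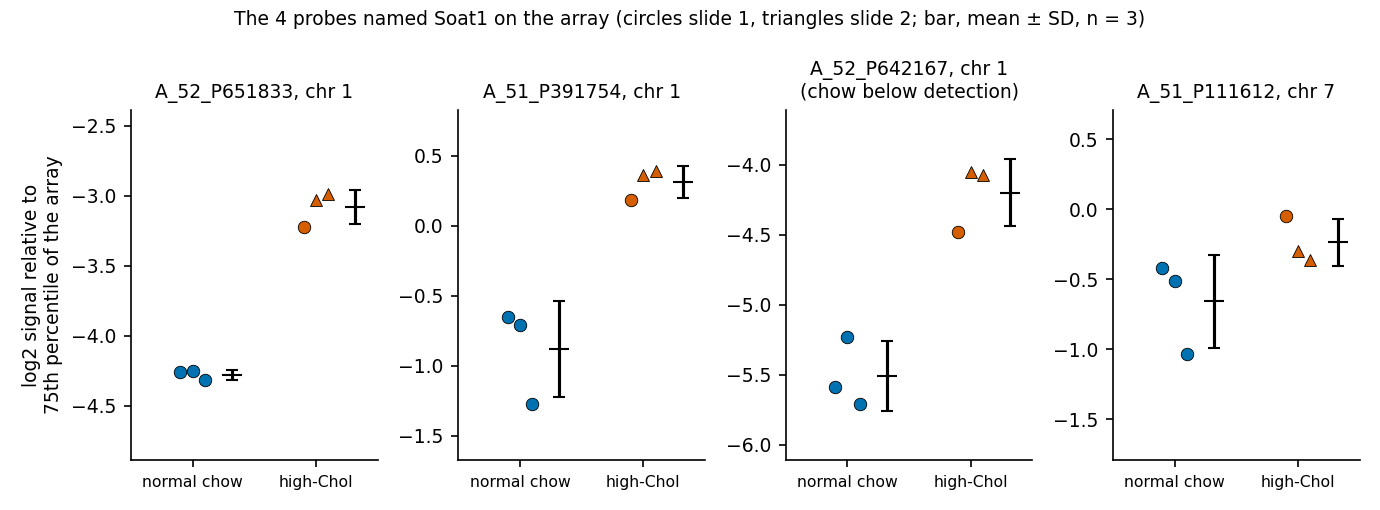
Log2 signal relative to the 75th percentile of the array for the 4 probes named Soat1, by diet; points are arrays (circles slide 1, triangles slide 2), bars are the mean ± SD of 3 arrays, and every vertical axis spans 2.5 units with its own origin. The diets do not overlap in A_51_P391754 (chow -1.27 to -0.65, high-Chol 0.18 to 0.39) and lie closer in the chromosome 7 probe (chow -1.04 to -0.42, high-Chol -0.36 to -0.05); the chow points of A_52_P642167 are not well above background.

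Soat2, which encodes the hepatocyte enzyme of the same reaction, did not pass the test and had a difference below 0. Its probe A_51_P196997 is shown because it covers 918 bases of the plus strand at chr15:102147252-102148169 (mm7) with 60 bases, so its target is split by at least 1 gap in the genome.
A_51_P196997: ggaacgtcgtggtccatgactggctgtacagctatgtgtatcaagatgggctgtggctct
It read 0.99, 1.39 and 2.16 with chow against 1.27, 0.97 and 0.51 with high-Chol feeding. The diets overlapped, and the chow arrays spread over more than 1 log2 unit. The log2 difference was -0.59 (95% interval -1.39 to 0.20; limma, adjusted p = 0.337), and -0.24 with the slide as a block. It was -0.27 without chow array 3, -0.39 without high-Chol array 3 and -0.30 under the normexp background. The diet difference of Soat1 exceeded that of Soat2 by 1.79 on the log2 scale, as the difference of the brightest probes within each array. That quantity was -3.43 to -1.64 with chow against -1.09 to -0.11 with high-Chol feeding, without overlap (exact two-sided permutation test, p = 0.1, the smallest the design allows). The excess was 1.30 with the slide as a block and 0.89 under the normexp background (p = 0.2 by the same permutation test), and 1.01 when Soat1 was read by the chromosome 7 probe.

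Lcat, the plasma esterifying enzyme, was not called. Its probe A_51_P336060 lies on the minus strand at chr8:104538812-104538871 (mm7) and is shown as the reading of the third esterifying enzyme.
A_51_P336060: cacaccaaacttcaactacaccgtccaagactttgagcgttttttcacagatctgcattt
It read 3.77, 4.09 and 4.12 with chow against 3.92, 3.04 and 3.17 with high-Chol feeding. High-Chol array 1, the one on the slide of the chow arrays, lay within the chow range, and the arrays of slide 2 lay below it. The log2 difference was -0.62 (95% interval -1.24 to -0.01; limma, adjusted p = 0.233), with -0.07 when slide was a block and -0.30 under the normexp background. Without high-Chol array 1 it was -0.90 and passed the test (limma, adjusted p = 0.0183), a comparison in which slide and diet cannot be told apart. In that comparison 787 of 17748 genes were called lower.

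On the side of release, Npc1 had the largest difference below 0 among the 6 genes, and it was not called. Its probe A_51_P349341 lies on the minus strand at chr18:12540769-12540828 (mm7). It read 1.23, 1.69 and 1.90 with chow against 1.12, 0.48 and 0.70 with high-Chol feeding. The diets did not overlap, and genes with every high-Chol array below every chow array made up 14.0% of all genes, but the lowest chow array and high-Chol array 1, which share slide 1, were close. The mean was 1.60 ± 0.34 (SD, n = 3) with chow against 0.76 ± 0.33 (SD, n = 3) with high-Chol feeding, a log2 difference of -0.84 (95% interval -1.42 to -0.26) with an adjusted p of 0.135 from limma and an unadjusted p of 0.0108. The difference was -0.49 with the slide as a block (limma, adjusted p = 0.697) and -0.48 under the normexp background. Without high-Chol array 1 it was -1.02 and passed the test (limma, adjusted p = 0.0307), where slide and diet cannot be told apart. In that setting 787 of 17748 genes were called lower. A second Npc1 probe, A_52_P410979, 28900 bases away, was not well above background on any array and gives no level.

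Lipa and Npc2 differed little between the diets. The Lipa probe A_51_P459661, on the minus strand at chr19:34194531-34194590 (mm7), read 2.88, 3.12 and 3.01 with chow against 3.30, 3.20 and 2.90 with high-Chol feeding. Its log2 difference was 0.13 (95% interval -0.26 to 0.53; limma, adjusted p = 0.655). It was 0.05 without high-Chol array 1, 0.07 without chow array 1, 0.25 without high-Chol array 3, 0.04 with array weights, 0.26 with quantile normalization, 0.30 with the slide as a block and 0.35 under the normexp background. The Npc2 probe A_51_P347961, on the minus strand at chr12:82757293-82757352 (mm7), read 3.32, 3.46 and 3.65 with chow against 3.59, 3.47 and 3.60 with high-Chol feeding. Its log2 difference was 0.08 (95% interval -0.29 to 0.44; limma, adjusted p = 0.785). It was 0.16 without chow array 3, 0.12 without high-Chol array 2, 0.03 with array weights, 0.22 with quantile normalization and 0.33 under the normexp background, and -0.0022 without chow array 1. For both genes the diets overlapped, and median scaling turned the sign, to -0.10 for Lipa and -0.16 for Npc2, while the median of all genes moved from -0.02 to -0.26. A second Lipa probe, A_52_P553471, 29278 bases from the first, was not well above background on any array.

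**Figure D3:**
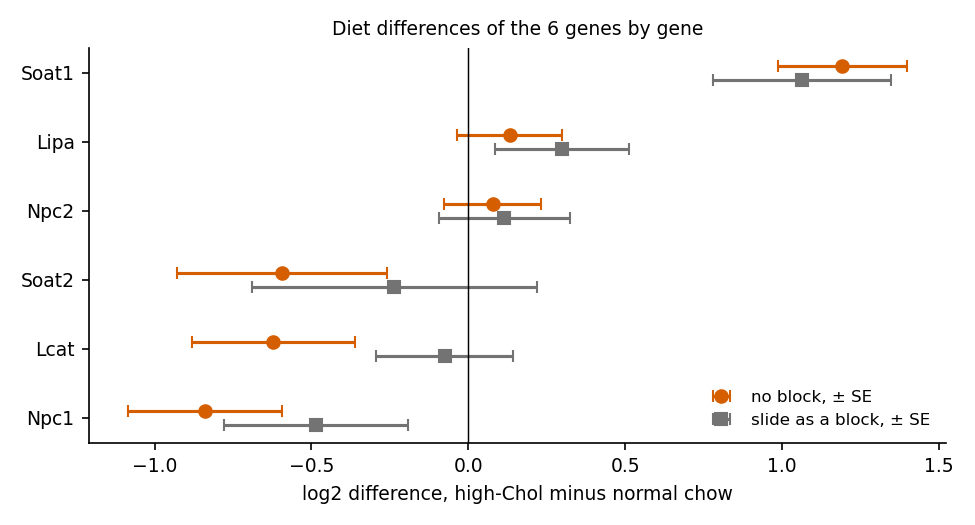
Log2 difference, high-Chol diet minus normal chow, for the brightest probe of each gene; circles are the comparison of 3 against 3 arrays and squares the same with the slide as a block, each with its standard error. The Soat1 values of 1.19 and 1.06 lie apart from 0, and the Lcat value moves from -0.62 to -0.07 with the block.

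The 16 partners of sterol ester turnover are neutral ester hydrolases, apolipoproteins and transporters that receive or deliver Chol. Of these, 1 was called higher (2.69% of all genes were), 0 were called lower and 15 were not called, with a median log2 difference of -0.16 against -0.02 over all genes. The median was 0.041 under the normexp background, -0.065 after quantile normalization, -0.078 with the slide as a block and -0.40 when arrays were scaled by their medians, and it was -0.30 without chow array 1, -0.28 without high-Chol array 1, -0.10 without chow array 3 and -0.099 without high-Chol array 2. The gene called was Abcg1, which exports Chol to HDL and which rose by 1.28 ± 0.14 (SE; adjusted p = 0.0089). Abca1, which exports Chol to lipid-poor apolipoproteins, differed by 0.57, Apoa1, the cofactor of LCAT, by -0.57, Lipe, hormone-sensitive lipase, by -0.40 and Apoc1 by -0.34, and none of the 4 was called. Nceh1, a neutral Chol ester hydrolase, differed by -0.32 ± 0.23 (SE).

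In the list of endosomal and cytosolic sterol transport, 21 of 22 genes were measured, of which 1 was called higher and 2 were called lower, beside 2.69% and 0.227% of all genes. The median was -0.11, and it was -0.35 with median scaling, 0.01 after quantile normalization and 0.06 under the normexp background. Leaving out chow array 1 gave -0.18, chow array 3 gave -0.060 and high-Chol array 1 gave -0.057. Gramd1b, which carries Chol from the plasma membrane to the endoplasmic reticulum, rose by 1.40, between means of -1.34 ± 0.11 (SD, n = 3) and 0.06 ± 0.31 (SD, n = 3) (limma, adjusted p = 0.0162). Stard4, a cytosolic sterol carrier, fell by 1.12 (adjusted p = 0.0465), and Tmem97, an endoplasmic reticulum protein that binds NPC1, fell by 0.99 (adjusted p = 0.0451). Osbpl1a differed by -0.55, Osbpl2 by -0.38 and Anxa6 by -0.36, and these were not called. Npc1l1 was not well above background on all arrays of either diet.

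Among 23 lysosomal membrane proteins and lipid hydrolases, 1 was called higher, near the 2.69% of all genes, and 0 were called lower, with a median of -0.06 (0.03 after quantile normalization, 0.04 under normexp, -0.30 with median scaling and -0.0014 with the slide as a block). Leaving out an array moved that median to between -0.11 (chow array 2) and 0.073 (chow array 3), with -0.041 without high-Chol array 2 and 0.023 without high-Chol array 3. Cd63, a membrane protein of late endosomes and of secretory granules, rose by 1.62 ± 0.27 (SE; limma, adjusted p = 0.0293). The sphingolipid activator precursor Psap differed by 0.64, the glycosidase Gusb by 0.59 and the channel Mcoln1 by -0.70, and none of these was called. Lamp1 and Lamp2, the main proteins of the lysosomal membrane, differed by -0.13 and -0.31.

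Targets of the sterol-sensing factors SREBP-2 and LXR were measured beside the 6 genes. All 12 SREBP-2 targets had a difference below 0, as 52.2% of all genes did, with a median of -1.55, and 5 were called lower against 0.227% of all genes, among them Sqle at -2.97, Sc4mol at -2.10 and Cyp51 at -2.01, enzymes of Chol synthesis. Idi1, at -1.79, Fdps, at -1.79, Fdft1, at -1.54, and Lss, at -1.34, were not called. Of 10 LXR targets, 2 were called higher against the 2.69% over all genes, Lpl at 1.87 and Abcg1 at 1.28, with a list median of 0.31. That median was 0.086 without chow array 1, 0.50 without chow array 3, 0.070 with median scaling, 0.48 with quantile normalization and 0.55 under the normexp background. Mylip differed by 0.60, Abca1 by 0.57, Abcg5 by 0.39 and Lpcat3 by -0.26, none of which was called. With the slide as a block no gene of the pathway lists was called, where 0.0658% of all genes were and 1522 genes had an unadjusted p under 0.05, and the medians of the SREBP-2 and LXR lists were then -1.12 and 0.37.

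**Figure D4:**
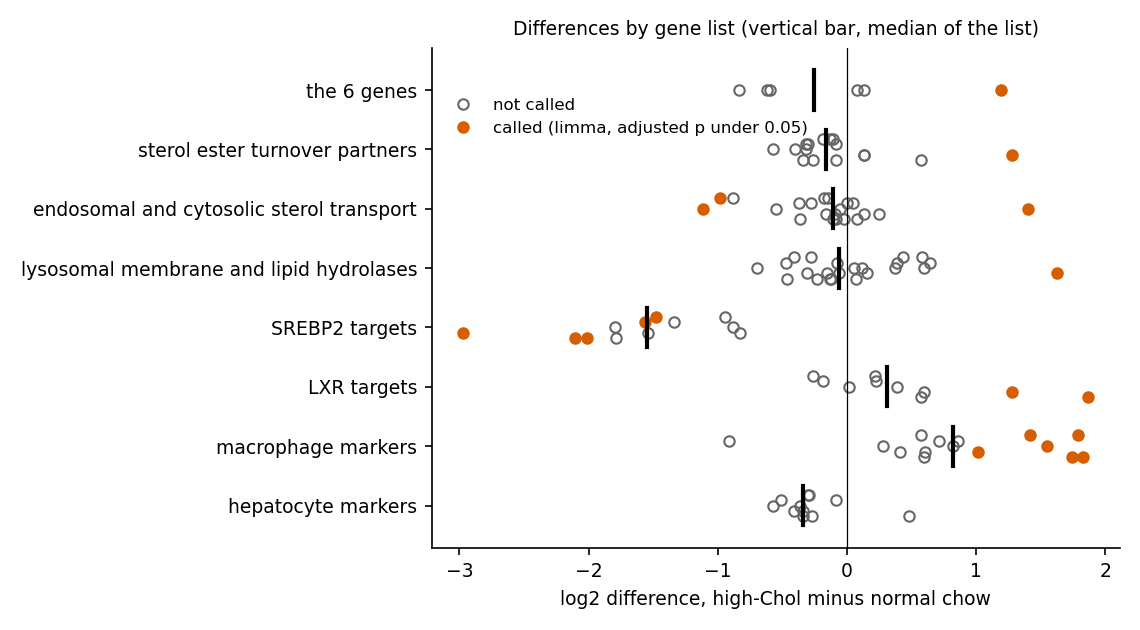
Log2 difference, high-Chol diet minus normal chow, of every measured gene in the lists named at the left; filled points were called by limma at an adjusted p under 0.05, open points were not, and the vertical bars are list medians. Soat1 is the filled point of the top row, and the macrophage markers lie to the right of 0 in 14 of 15 cases with a median of 0.82.

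In whole liver a change in the number of cells of a type and a change in RNA per cell cannot be told apart, and SOAT1 is a macrophage enzyme as well as a liver one. Of 16 macrophage markers, 15 were measured, 6 were called higher against 2.69% of all genes, 14 had a difference above 0 against 47.8% of all genes, and the median was 0.82. The 6 were Marco at 1.83, Lyzs at 1.78, Cd68 at 1.74, Msr1 at 1.55, Cd5l at 1.42 and Mpeg1 at 1.01. Timd4 differed by 0.86, Cd14 by 0.82, C1qb by 0.61 and Cd163 by -0.91, and none of these was called, nor was the Kupffer cell marker Clec4f at 0.41 or Csf1r at 0.28. The summed signal of the list, in units of the 75th percentile of each array, was 192 to 225 with chow against 452 to 593 with high-Chol feeding, without overlap. Lyzs and Cd5l made up 78.0% of the rise in that sum, and without these 2 genes it was 72.1 to 85.0 with chow against 146 to 158 with high-Chol feeding. With the slide as a block the median of the list was 0.70 and no marker was called. The part of these cells in the Soat1 result was not tested. The 11 hepatocyte markers measured had a median of -0.34 and 0 were called, where 0.227% of all genes were called lower. The median was -0.20 with the slide as a block, -0.12 with quantile normalization, -0.58 with median scaling and -0.00048 under the normexp background. Their summed signal was 3684 to 3947 with chow against 2860 to 3227 with high-Chol feeding.

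The genes whose level followed each of the 6 most closely over the 6 arrays were taken from 14037 genes well above background on all arrays, as a description with Pearson's r over 6 points that share slides and diets. For Soat1, read by A_51_P391754, they were Gla, lysosomal alpha-galactosidase (r = 0.996), Rab32 (0.993), B4galt6 (0.992), Itgal, an integrin of leukocytes (0.990), and Fas (0.989). For Soat2 they were Dgat1, which makes triacylglycerol by a related acyl transfer (0.986), Mfap1 (0.986) and Scnn1a (0.983). For Lcat they were BC003885 (0.999), Ubqln4 (0.998) and Aco1 (0.998). For Npc1 they were Asgr1, the hepatocyte asialoglycoprotein receptor (0.998), Dgcr6 (0.997) and Gckr, the glucokinase regulator (0.997). For Lipa they were V1re6 (0.993), 4931406I20Rik (0.979) and Whsc2 (0.972), and for Npc2 they were Glb1, lysosomal beta-galactosidase (0.987), Gatad2a (0.975) and Clstn1 (0.965).

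Promoters of Soat1, Lcat, Lipa and Npc2, 300 bases each from RefSeq on GRCm38.p6, were searched on both strands for 4 motifs. The promoter set held none under the names Soat2 and Npc1, so those genes could not be searched. The motifs were the 10-base E-box of lysosomal genes, its core CACGTG, which the first contains, the 10-base sterol regulatory element and the LXR element, a pair of AGGTCA repeats with 4 bases between them. None of the 4 promoters held any of them, and of the 32851 promoters searched, 0.326%, 7.15%, 0.0913% and 0.0152% did. No match says only that these letters are not in these windows.

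The Soat1 difference was above 0 in every processing setting tried, and its side of the threshold was not stable. Of 17 other settings with a test it was called in 6, and the authors' deposited values, which have no test, gave 0.95.

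**Figure D5:**
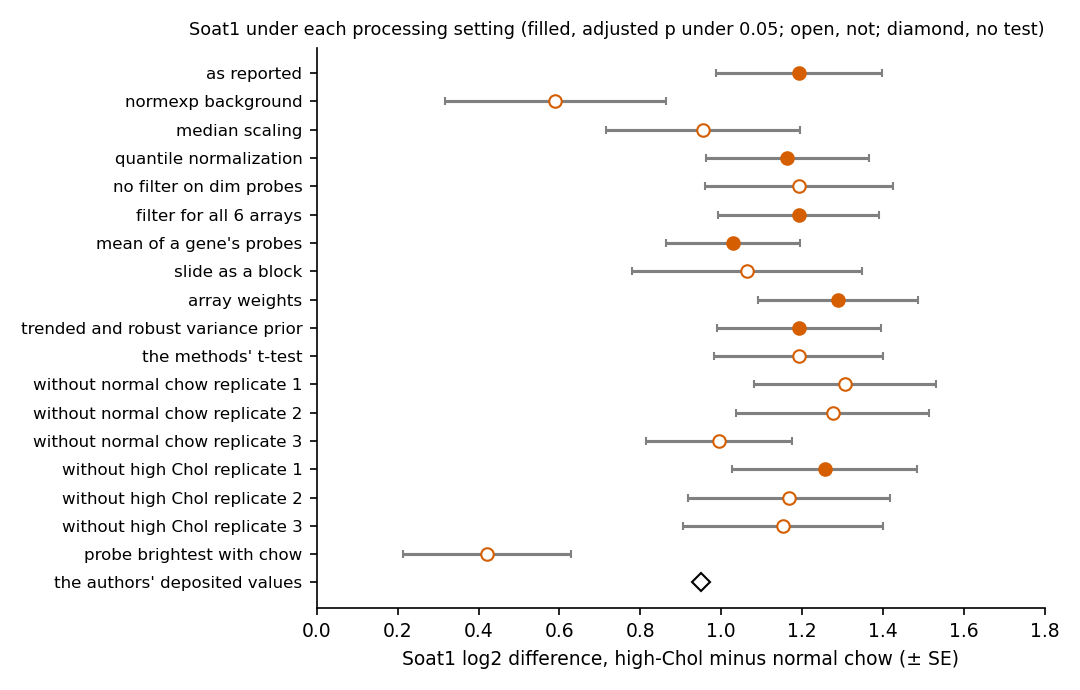
Soat1 log2 difference, high-Chol diet minus normal chow, with its standard error, under each processing setting named at the left; filled circles had an adjusted p under 0.05, open circles did not, and the diamond is the authors' deposited value, which has no test. Every value lies above 0, from 0.42 with the probe brightest with chow to 1.31 without chow array 1.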

How the data were processed

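RNA from the liver of apoE-KO mice was hybridized to 1-colour Agilent whole mouse genome arrays, 6 in all. The authors deposited each array's scanner output, in which spot intensity had been extracted and background-subtracted with Agilent Feature Extraction (9.5 for slide 1 and 9.1 for slide 2 per the file headers; the submitters' processing notes name 9.1) and not normalized between arrays. The authors also deposited a file of log2 values, 1 per probe and diet, made in Gene Spring GX with a normalization and filter not given in the sources used here; it was used as an alternative only.

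Control spots (1639 per array) and outlier spots (75 to 196) were left out, saturated spots (0 to 5) were kept, and log2 of the processed signal minus the 75th percentile of the array was taken. Spots of a probe were averaged. Probes had to be well above background on every array of 1 diet or the other, which kept 9 of the 11 probes and all 6 genes, and the kept probe brightest over all 6 arrays stood for a gene, so that for Soat1 the high-Chol level bore on the choice. The accession of 23082 probes matched the reference gene table, used for names alone.

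The comparison of diets used limma (version 3.58.1, under R 4.3.3) without covariates (3 arrays against 3, Benjamini-Hochberg over all genes or probes kept), in place of the Student test that the study's methods name, which was run as an alternative. Differences between probes were tested by exact permutation over arrays. The p-values measure the spread between arrays, whose number limits the precision. Arrays of a diet correlated at r = 0.976 to 0.991 over genes, and arrays of different diets at 0.956 to 0.982. Tables and plots used data.table (version 1.17.8), Python 3.11.15, pandas 2.3.3, numpy 2.4.6 and matplotlib 3.10.9.

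The genes, lists and tests were chosen with earlier results of these data known. Lists of sterol ester turnover partners, sterol transport, lysosomal genes, SREBP-2 targets, LXR targets and markers of macrophages, hepatocytes, endothelial cells, stellate cells, cholangiocytes, lymphocytes and neutrophils are described by counts and medians. Named are the 6 genes and all their probes, Apoe, list genes called by limma with up to 4 more of the largest difference among genes measured on all 6 arrays, and the genes most alike over arrays (5 for Soat1, 3 for the others). Nceh1, Lamp1, Lamp2, Csf1r, Clec4f, Arrdc4 and Ch25h were named outside this rule, after their values were seen. Some single genes that the rule names are not reported here. Alternatives were a normexp background (offset 50), median and quantile scaling, no filter, a filter for all 6 arrays, array weights, slide as a block, a mean over the probes of a gene, a trended and robust prior, the methods' t-test, each array left out and the authors' values; the block for differences between probes and the probe brightest with chow were added after seeing the data.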

Additional observations from a re-analysis of the deposited data

How the results depend on the processing

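Soat1 kept its direction in every alternative and lost its call under the normexp background (0.59), median scaling (0.96), no filter on dim probes (1.19), the slide as a block (1.06), the methods' t-test (1.19) and the probe brightest with chow (0.42), and its range with an array left out was 0.99 to 1.31. Lcat and Npc1 became called with array weights (-0.86 and -1.04), a setting in which 995 of 16725 genes were called lower. With an array left out they ranged from -0.90 to -0.45 and from -1.03 to -0.69. Among these fits they were called only without high-Chol array 1, where 787 of 17748 genes were called lower. Lipa turned with median scaling (-0.10) and the authors' values (-0.11), and Npc2 with the same (-0.16 and -0.17) and without chow array 1 (-0.0022, range -0.0022 to 0.165). Soat2 changed no call and ranged from -0.86 (without chow array 1) to -0.27 (without chow array 3) with an array left out. The excess of Soat1 over Soat2 was 0.89 under normexp and 1.01 with the probe brightest with chow, a choice that gave 125 genes another probe and 439 genes called higher and 38 lower.

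Over all genes, 450 were called higher and 38 lower. The counts were 0 and 0 under normexp (305 genes at an unadjusted p under 0.05), 26 and 0 with no filter (3198 genes), 11 and 0 with the slide as a block (1522 genes), 2200 and 995 with array weights and 4 and 1 with the methods' t-test after adjustment. They were 329 and 73 with median scaling and 449 and 89 with the trended prior. With an array left out, calls were 42 to 3155 higher and 0 to 787 lower, the most without high-Chol array 1, where slide and diet cannot be told apart. In the pathway lists 0 genes were called under normexp, with no filter and with the block, and 1 to 24 with an array left out; in the marker lists the counts were 0, 2 and 0, and 3 to 19.

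Normexp turned A_52_P651833 (-0.36) and A_52_P642167 (-0.64), the list medians of sterol ester turnover (0.041), sterol transport (0.057), lysosomal genes (0.035) and lymphocyte markers (-0.44), and the probe pairs of Soat1 that hold a dim probe: A_52_P651833 against A_51_P391754 (0.0049 to -0.95), A_52_P642167 (-0.11 to 0.28) and A_51_P111612 (0.78 to -0.47), A_51_P391754 against A_52_P642167 (-0.12 to 1.23), and A_52_P642167 against A_51_P111612 (0.89 to -0.75). Quantile normalization turned the medians of sterol transport (0.013) and lysosomal genes (0.026), and the last was 0.073 without chow array 3 and 0.023 without high-Chol array 3. With an array left out, A_52_P651833 against A_51_P391754 ranged from -0.10 to 0.18 (-0.066 without chow array 2 and -0.00062 without high-Chol array 3), and A_51_P391754 against A_52_P642167 from -0.21 to 0.037. With the slide as a block, chosen after seeing the data, the 3 pairs within chromosome 1 turned (-0.0069, 0.025 and 0.032). The cause of these changes was not tested.

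No paired analysis was possible because the replicate numbers belong to a diet as a whole and not to an array. Authors' values have no test, so they give no counts. Dim probes limit what can be said: those not well above background give only bounds.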

Other observations

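The nearest probe of another gene to the Lipa probe, 19299 bases away on the same strand, reads Ch25h, which encodes cholesterol 25-hydroxylase. It was not well above background on any chow array and was on all 3 high-Chol arrays, so it passed the filter only through the latter. Its level with high-Chol feeding is given only as a bound on the means, at least 4.62-fold higher with the background subtraction of the scanner output. Its value under the normexp background is not given here.

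Markers of other cells were measured beside the macrophage markers. Of 7 neutrophil markers 6 were on the array and 3 passed the filter on dim probes. S100a8 and S100a9, which macrophages also express, were called higher, at 3.21 and 2.90 on the log2 scale, beside 2.69% of all genes. Mpo differed by 0.48. The median of the 3 was 2.90, and it was 1.07 under the normexp background. With no filter on dim probes the list median was 0.31. Of 9 stellate cell markers, Vim rose by 1.30 and Col1a1 by 1.04, 2 genes called beside the same 2.69%, and the median was 0.37, which was 0.14 without chow array 2, 0.23 without high-Chol array 1, 0.14 with median scaling and 0.17 with quantile normalization. With 2.69% of all genes called higher and 0.227% called lower, no gene was called among the 9 endothelial markers (median 0.25, 0.091 with the slide as a block and 0.010 with median scaling), the 5 measured cholangiocyte markers (median -0.47, -0.25 without high-Chol array 2, -0.30 with the slide as a block and -0.31 under the normexp background) and the 6 measured lymphocyte markers (median 0.33, 0.16 without chow array 3, 0.22 without high-Chol array 3, 0.77 with the filter for all 6 arrays, 0.16 with quantile normalization, 0.098 with median scaling, 0.032 with the slide as a block and -0.44 under the normexp background).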
